A study of Prunus persica with 8 samples.

Results

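WEEP, taken here to be the gene listed as ppa013325m.g, is the gene on scaffold 3 whose transcript is nearly lost in weeping peach trees, and the genes described here are those that surround it. They are all genes listed on scaffold 3 whose midpoint lies between 13600000 and 17600000, which is 2 Mb on each side of WEEP (15601137 to 15603955), with WEEP itself left out. Of the 27864 genes listed, 600 lie in this window, 287 before WEEP and 313 after it. The first runs from 13607017 to 13610531 and the last from 17597849 to 17600970. RNA came from lateral branch tips of mature, field-grown peach (Prunus persica) trees, 4 of weeping and 4 of standard habit, with 4 tips of about 4 cm per tree. All are siblings of a segregating F2 population from breeding parents, and none is a cultivar. The labels do not say whether any standard tree carries a weeping allele. Positions are those of the deposited table, whose genome build is not given in the sources used here. Its identifiers come without gene names, so the identity of WEEP was assigned by identifier and not read from the table, genes are given by position, their functions are not known here, and the branch tip label could not be checked against marker genes.

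Weeping habit in peach is known as a recessive trait, in which branches bend downward instead of growing up and out. WEEP encodes a protein with a sterile alpha motif, a fold through which proteins often bind each other. When F2 siblings are sorted by a trait of this kind, the trees of the recessive class carry the same parental chromosome segment at the locus. Recombination breaks up that segment with increasing distance from the locus.

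Reads assigned to genes numbered 17011614 to 21584724 per library. WEEP had 9, 6, 3 and 7 reads in weeping trees 1 to 4, against 1813, 1615, 1677 and 1711 in standard trees 7 to 10. Of the 600 neighbouring genes, 80 had no read in any library and another 111 had too few reads to be tested, which left 409. In bulk tissue, fewer cells of a type and less transcript per cell cannot be told apart. By the column names, lane 8 held weeping trees 3 and 4, and lane 6 held weeping trees 1 and 2 with all 4 standard trees.

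Most genes of the window were within 2-fold between the habits, and those that were called went in both directions. A gene is called here when edgeR's quasi-likelihood test, fitted and adjusted over all 18520 tested genes of the table, gave an adjusted p under 0.05. By that test 62 of the 409 tested genes were called, or 15.2%, against 11.5% over the whole table. The window held 35 genes called higher (8.56%, against 5.33% over the whole table) and 27 called lower (6.6%, against 6.18%) in weeping trees. In the rest of scaffold 3, 12.2% of tested genes were called, 5.32% higher and 6.92% lower. Most changes were small: 41 of the 62 were under 2-fold, and the median log2 fold change was 0.70 for called genes that were higher and -0.93 for those that were lower. Called genes changed at least 2-fold were 21 of the 409 tested, against 710 of 18520 over the table (3.83%). Changes of at least 4-fold were found in 5 of the 409, against 142 of 18520 (0.767%). Changes of at least 8-fold were found in 3, against 22 (0.119%). Over all 409 the median absolute change was 0.27 on the log2 scale, against 0.23 over the table, and 369 genes (90.2%) were within 2-fold, against 92.5% of the table. The median signed change was 0.01 in both.

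The count of 62 moved with single trees, as did the share called over the table. It was 2 without weeping tree 2, where 0.107% of all genes were called, and 10 without standard tree 8 (1.37%). It was 15 without weeping tree 3 (2.32%) or standard tree 10 (2.39%), 16 without weeping tree 1 (2.28%) and 20 without standard tree 7 (2.53%). It was 94 without standard tree 9 (18.1%) and 100 without weeping tree 4 (21%). With all 8 libraries it was 98 by DESeq2 (20.9%), 61 with RLE scaling (11.5%), 63 on unique reads (11.9%), and 57 without a filter (8.22%) or with a stricter one (11.7%). It was 47 within lane 6, with weeping trees 1 and 2 against the 4 standard trees (9.9%), and 1 at an adjusted p under 0.01 (0.0486%). The 2 genes called with every library left out in turn lay at 13631252 and 16546309. Another 8 lost their call only without weeping tree 2. No called gene changed direction in any of the 15 alternative fits. This was largely fixed in advance, because habits overlapped in only 6 of the 62 and leaving out a tree hardly reverses the others. The share called was higher in the window than in the table in each of these fits, the difference being 9.29% (38 genes) against 8.7% with lane as a model term. The fits share most of their libraries and are not independent of each other.

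**Figure D1:**
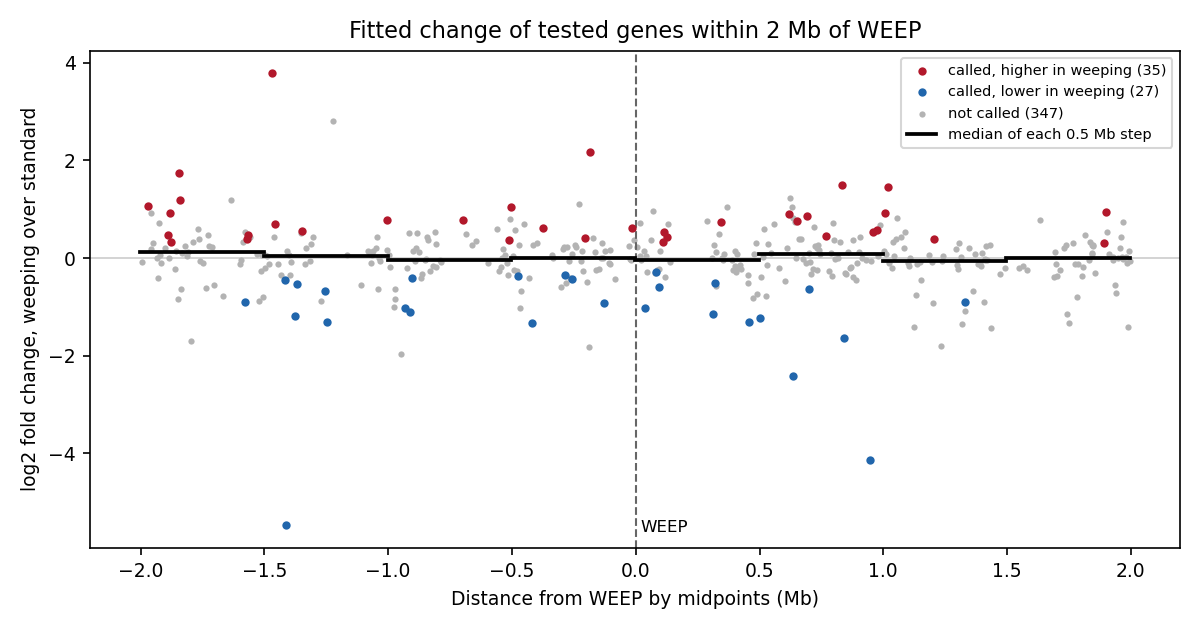
Fitted log2 fold change, weeping over standard, of each of the 409 tested genes against the distance of its midpoint from WEEP in Mb; black lines are medians of the 0.5 Mb steps. The medians stay between -0.06 and 0.13, while a few genes on both sides lie far from 0.

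By distance, in the fit defined above, called genes were found in every step. In that fit the share called was above that of the table in all steps before WEEP and in the first Mb after it. In steps of 0.5 Mb from the far end up to WEEP, 9 of 51, 10 of 42 (23.8%), 6 of 45 (13.3%) and 9 of 54 (16.7%) tested genes were called. After WEEP the share was 19.6% (10 of 51), 17.9% (12 of 67), 7.69% (4 of 52) and 4.26% (2 of 47). The last Mb thus held 6 calls among 99 tested genes, or 6.06%, below the 11.5% of the table. Its share was below that of the table in all 15 alternative fits too, but these fits share most of their libraries. Without weeping tree 1, 2 or 3 or standard tree 7, 8 or 10 it held only 0 to 2 calls, so those fits say little. The higher shares before WEEP depended on the settings. In the third step the share was 11.1% on unique reads (11.9% over the table), 6.25% without a filter (8.22%) and 9.52% with a stricter one (11.7%). In the fourth step it was 5.56% with lane as a model term (8.7%) and 8.93% within lane 6 (9.9%). The counts of single steps moved with single trees, as did the share called over the table. Without weeping tree 1, 2 or 3 or standard tree 7, 8 or 10, the third step had 0 calls and the fourth step 0 or 1. In those fits only 0.107 to 2.53% of all tested genes were called, so low counts are not particular to these steps. With any 1 tree left out, the counts of the 8 steps in order ranged from 1 to 17, 0 to 12, 0 to 11, 0 to 15, 0 to 15, 1 to 18, 0 to 10 and 0 to 9. The highest counts came without weeping tree 4 or standard tree 9, where 21% and 18.1% of all tested genes were called. Direction was mixed in most steps, with 4 higher and 6 lower in the second step and the same split in the first step after WEEP. In the step farthest before WEEP, 8 of the 9 called genes were higher in weeping trees.

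That outermost step also had the median fold change farthest from 0, at 0.13 on the log2 scale (quartiles -0.12 and 0.41). Measured as the median deviation from the mean of the standard trees, the step stood at 0.10, 0.17, 0.19 and 0.18 in weeping trees 1 to 4, against 0.01, -0.06, 0.02 and 0.00 in standard trees 7 to 10. The weeping trees lay above the standard trees there. In the step from 1 to 1.5 Mb after WEEP they lay below, at -0.05, -0.06, -0.08 and -0.05 in weeping trees 1 to 4, against 0.01, 0.07, -0.02 and 0.01 in standard trees 7 to 10. Outside the outermost step before WEEP, the median log2 fold change of the steps was between -0.06 and 0.08. Median levels over the tested genes were 5.38 RPKM in weeping and 5.52 RPKM in standard trees in the last step before WEEP, and 6.18 and 6.58 RPKM in the first step after it. RPKM here scales reads to the whole gene span and to the library's mapped reads.

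**Figure D2:**
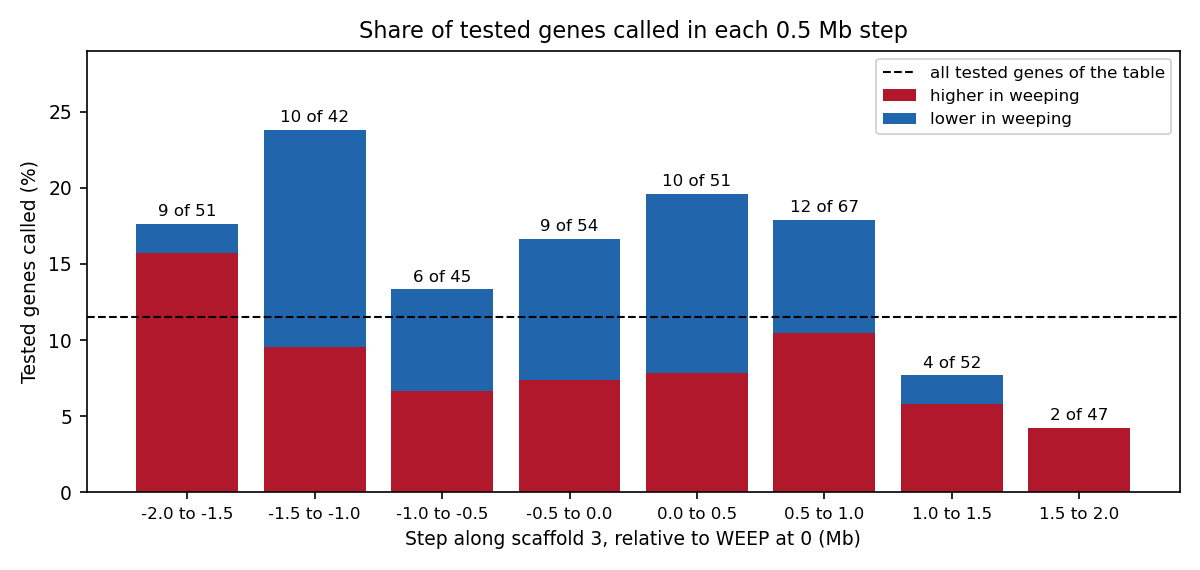
Percent of tested genes called in each 0.5 Mb step along scaffold 3, with WEEP at 0, divided by direction; the dashed line is the 11.5% called over all tested genes. The steps up to 1 Mb after WEEP lie above the line and the last 2 lie below it.

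Next to WEEP, whose own transcript was almost missing from weeping trees, genes were called about as often as over the table. The 8 listed genes on each side reach out to 82.5 kb, and 14 of these 16 had enough reads to be tested. Of the 14, 2 were called (14.3%, against 11.5% of the table) and 13 were within 2-fold (92.9%, against 92.5%). The gene next to WEEP on the left (15594875 to 15598933) had 743, 945, 677 and 563 reads in weeping trees 1 to 4, against 593, 430, 560 and 649 in standard trees 7 to 10. The groups overlap in reads but not after scaling (33.4 to 43.4 CPM in weeping and 24.7 to 32.1 CPM in standard trees), and its log2 fold change of 0.36 (SE 0.12) was not called (adjusted p = 0.0752 by edgeR). The gene next to it on the right (15606013 to 15612476) had 646, 952, 823 and 527 reads in weeping trees, against 609, 572, 538 and 733 in standard trees. Its log2 fold change of 0.23 (SE 0.13) was not called either (adjusted p = 0.253 by edgeR).

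The called neighbours lay on opposite sides of WEEP and went in opposite directions. The gene at 15586247 to 15589247, 14.8 kb before WEEP, had 377, 369, 369 and 266 reads in weeping trees, against 232, 168, 219 and 274 in standard trees. Its level was 18.2 ± 2.20 CPM in weeping and 11.9 ± 1.64 CPM in standard trees (reads per 1000000 reads of the scaled library; SD, n = 4 each), and the fitted log2 difference was 0.61 (SE 0.13, adjusted p = 0.0294 by edgeR). The gene at 15640013 to 15640408, a short gene 37.7 kb after WEEP, had 178, 192, 139 and 253 reads in weeping trees, against 435, 478, 277 and 342 in standard trees. After scaling, weeping tree 4 at 15.0 CPM lay just below standard tree 9 at 15.3 CPM, and the log2 fold change was -1.03 (adjusted p = 0.0375 by edgeR). Both lost their call without weeping tree 1, 2 or 3 or standard tree 7, 8 or 10, with an adjusted p up to 0.0779 for the first and 0.11 for the second. With lane as a model term both lost it as well (adjusted p = 0.0537 and 0.0624 by edgeR), and within lane 6 the first lost it (adjusted p = 0.0571).

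Among these neighbours was also the most abundant transcript of the window. The gene at 15620346 to 15621722, 18.5 kb after WEEP, stood at 1439 ± 270 RPKM in weeping and 1399 ± 301 RPKM in standard trees (SD, n = 4 each), the 14th highest level of all genes in the table. It had 55329, 43636, 34643 and 38591 reads in weeping trees, against 32884, 36811, 53159 and 41735 in standard trees. The groups overlap, and weeping tree 1 and standard tree 9 were the highest. At the other extreme, the gene at 15572800 to 15573740 had no read in any library and the gene at 15530932 to 15531385 had 1 read, in weeping tree 3.

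**Figure D3:**
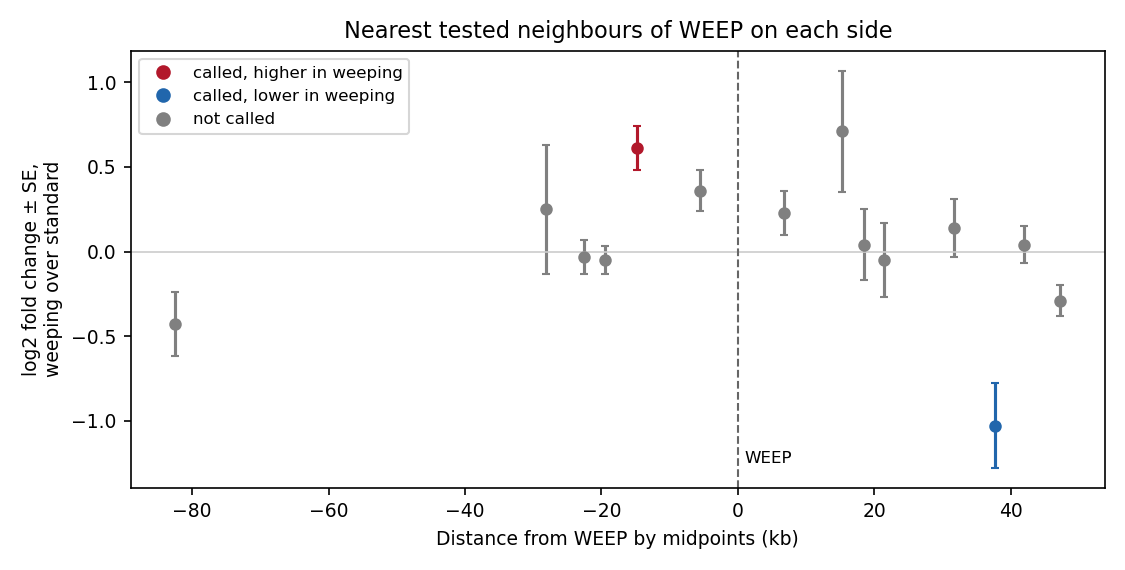
Fitted log2 fold change, weeping over standard, with its standard error for the 14 tested genes among the 8 nearest to WEEP on each side, against distance in kb. Before WEEP 1 gene was called higher and after it 1 was called lower, and the gene beside WEEP on each side was not called.

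The difference between habits with the smallest adjusted p in the window lay 945 kb after WEEP. The gene at 16546309 to 16548736 (ppa023552m.g) had 23, 30, 28 and 18 reads in weeping trees, against 415, 465, 339 and 488 in standard trees. Each group was tight, and standard trees had on average 17.7 times the CPM of weeping trees, with a log2 fold change of -4.14 (SE 0.17, adjusted p = 6.7e-06 by edgeR). With any tree left out its log2 fold change stayed between -4.22 and -4.06 and it stayed called. Reads with a single mapping position made up 97.6% of its total. It was not near absent in weeping trees, where every library held at least 1.06 CPM before scaling.

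Only 1 gene of the window was near absent in all trees of 1 habit, taken as every library under 0.5 CPM in that habit and at least 1 CPM in the other. The whole table held 4 such genes, WEEP included (0.0144% of the genes listed). The gene, at 14188940 to 14189764 (ppb009453m.g), had 0, 1, 5 and 0 reads in weeping trees, against 50, 71, 74 and 88 in standard trees. Standard tree 7 was the lowest of its group, at 2.7 CPM against 3.99 to 4.43 CPM in the other standard trees. The log2 fold change was -5.47 (SE 0.64, adjusted p = 0.0115 by edgeR), and without weeping tree 2 the adjusted p was 0.0543. Its last 45 bases overlap the next gene, at 14189720 to 14198128, which was not called and had 62.1 ± 5.23 CPM in weeping and 56.4 ± 1.93 CPM in standard trees (SD, n = 4 each). Whether the counting used strand is not given, so reads in the overlap cannot be assigned to either gene.

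A short way before it lay a gene with the opposite pattern. At 14133374 to 14134326 (ppa011246m.g), weeping trees had 225, 178, 171 and 136 reads, against 35, 8, 3 and 4 in standard trees 7, 8, 9 and 10. Its mean was 13.9-fold higher in weeping trees and the log2 fold change was 3.78 (SE 0.61, adjusted p = 0.0159 by edgeR). Standard tree 7 stood apart from the other standard trees, and without it the log2 fold change was 5.08. The call was lost without weeping tree 2 (adjusted p = 0.0576) and without standard tree 8 (adjusted p = 0.0513).

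Standard tree 7 differed from its group once more at 14378845 to 14382309, a gene singled out after its values were seen. Weeping trees had 163, 197, 147 and 152 reads, against 90, 2, 0 and 0 in standard trees 7, 8, 9 and 10. In CPM, standard tree 7 stood at 56% of the weeping mean, while the other standard trees stood at 1.29% or less. The gene was not called with all 8 libraries (log2 fold change 2.80, SE 1.12, adjusted p = 0.126 by edgeR). Without standard tree 7 the adjusted p was 0.00146. Counting only the 92.5% of its reads that mapped to a single place gave 79, 1, 0 and 0 reads in the standard trees.

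These 3 genes lie within 245 kb of each other, at 1.2 to 1.5 Mb before WEEP. Of the 24 genes tested from the first to the last of them, 9 were called (37.5%, against 11.5% of the table). In weeping trees 3 were higher (12.5%, against 5.33%) and 6 lower (25%, against 6.18%). This stretch was chosen for its values, so its share of calls is a description. Beside the first gene, one with too few reads to be tested (14127308 to 14129738) had 1, 0, 1 and 3 reads in weeping trees, against 12, 8, 8 and 5 in standard trees. Just past the last, another untested gene (14385838 to 14386253) had 1, 3, 2 and 2 reads in weeping trees, against 8, 12, 5 and 5 in standard trees. Among the 111 untested genes with reads, 7 had habits that did not overlap (6.31%, against 4.46% of such genes over the table), 6 of them lower in weeping trees.

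**Figure D4:**
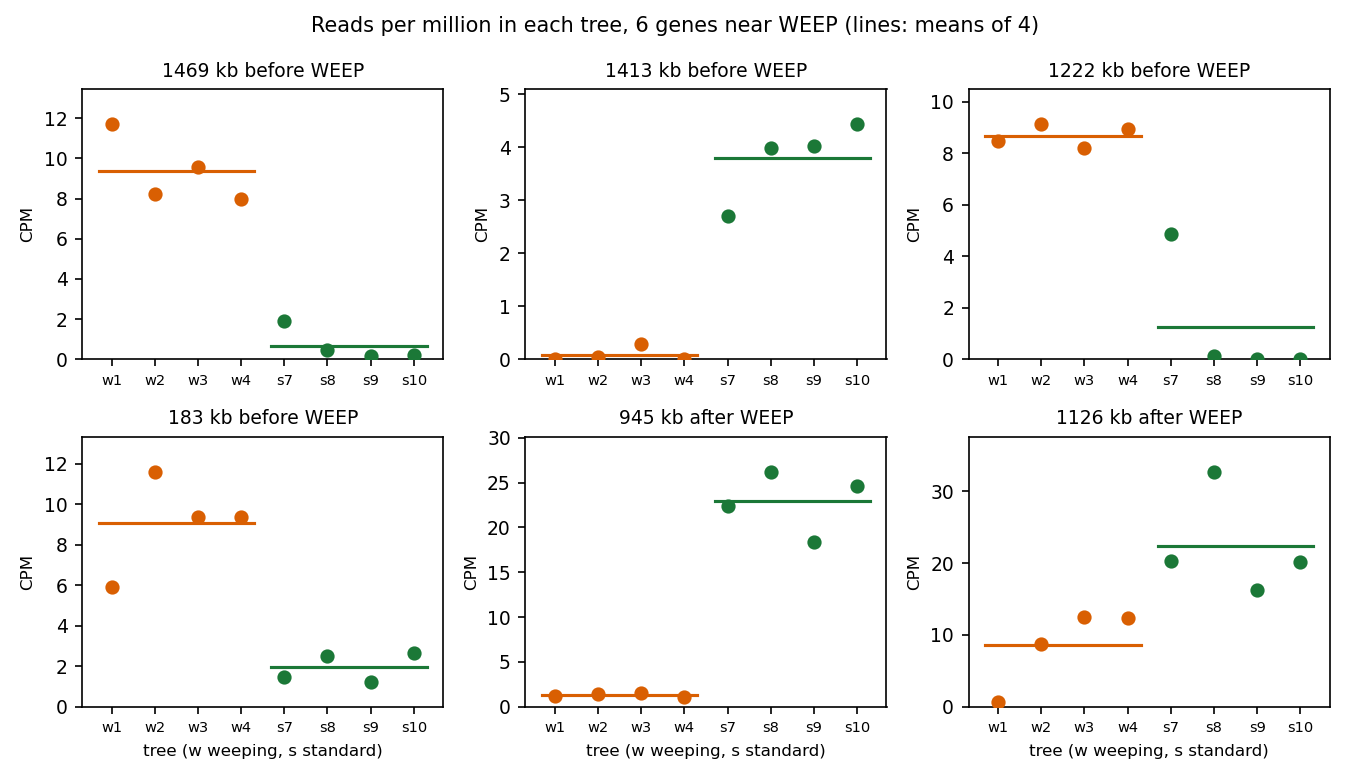
CPM of the unscaled library in each tree for 6 genes of the window, named by distance from WEEP, with group means as lines. At 1469 and 1222 kb before WEEP standard tree 7 lies between the weeping trees and the other standard trees, and at 1126 kb after WEEP weeping tree 1 lies far below all others.

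Taking every tree on its own, 4 genes of the window were switched, meaning that each library was either under 0.5 CPM or at 1 CPM or more, with both kinds present. That is 0.667% of the listed genes, against 0.775% of the table. They were the 3 genes above and the gene at 14653189 to 14654398. The last had 3, 9, 39 and 34 reads in weeping trees, against 110, 135, 36 and 49 in standard trees. Weeping trees 1 and 2 were low in it, while weeping trees 3 and 4 were level with standard trees 9 and 10, and it was not called (adjusted p = 0.105 by edgeR). Its reads mapped to a single place in 81.4% of cases. All 4 switched genes lay within 0.52 Mb of each other.

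Two-level patterns were read from the widest gap among the 8 sorted log2 CPM values of a gene. A gap of at least 1 on the log2 scale was found in 17 of the 409 tested genes (4.16%), against 5.57% over the table. In 4 of the 17 (23.5%) the gap separated weeping from standard trees, against 53 of the 1032 such genes in the table (5.14%). The 53 are 0.286% of all tested genes. With a gap of at least 2, 7 genes of the whole table were split by habit. They were WEEP, 3 genes of the window and another 3, and 6 of the 7 lay on scaffold 3. Those of the window were the genes at 14133374, 14188940 and 16546309. The gene at 15418733 joined them at the lower limit.

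That gene, at 15418733 to 15420402 (ppa007675m.g), lay 183 kb before WEEP. It had 114, 250, 168 and 159 reads in weeping trees, against 27, 45, 23 and 53 in standard trees. Weeping tree 1 was the lowest of its group, yet above every standard tree. The mean was 4.55-fold higher in weeping trees, and the log2 fold change was 2.18 (SE 0.29, adjusted p = 0.0129 by edgeR).

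In other genes a single tree stood apart. In 4 of the 17 genes with a gap of at least 1, weeping tree 1 was separated from all other libraries (23.5%, against 21.4% of such genes over the table). The clearest was the gene at 16727411 to 16728942, with 14, 188, 223 and 209 reads in weeping trees, against 375, 581, 299 and 402 in standard trees. It was not called (adjusted p = 0.143 by edgeR), although every weeping tree lay below every standard tree. Likewise the gene at 13803400 to 13805785 had 3, 19, 23 and 29 reads in weeping trees, against 74, 60, 42 and 65 in standard trees (adjusted p = 0.056 by edgeR). The gene at 16238709 to 16240073 had 21, 91, 72 and 59 reads in weeping trees, against 404, 420, 144 and 277 in standard trees, and was called lower (log2 fold change -2.41, SE 0.44, adjusted p = 0.0206 by edgeR).

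In all, 88 of the 409 tested genes (21.5%) had every weeping tree on one side of every standard tree. The share was 20.1% in the rest of scaffold 3 and 18.7% over the table. Weeping trees were above standard trees in 43 of the 88 and below them in 45. As a share of tested genes, such genes made up 29.4% in the outermost step before WEEP and 8.51% in the outermost step after it. Habits overlapped in 6 of the 62 called genes, and 32 genes whose habits did not overlap were not called.

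**Figure D5:**
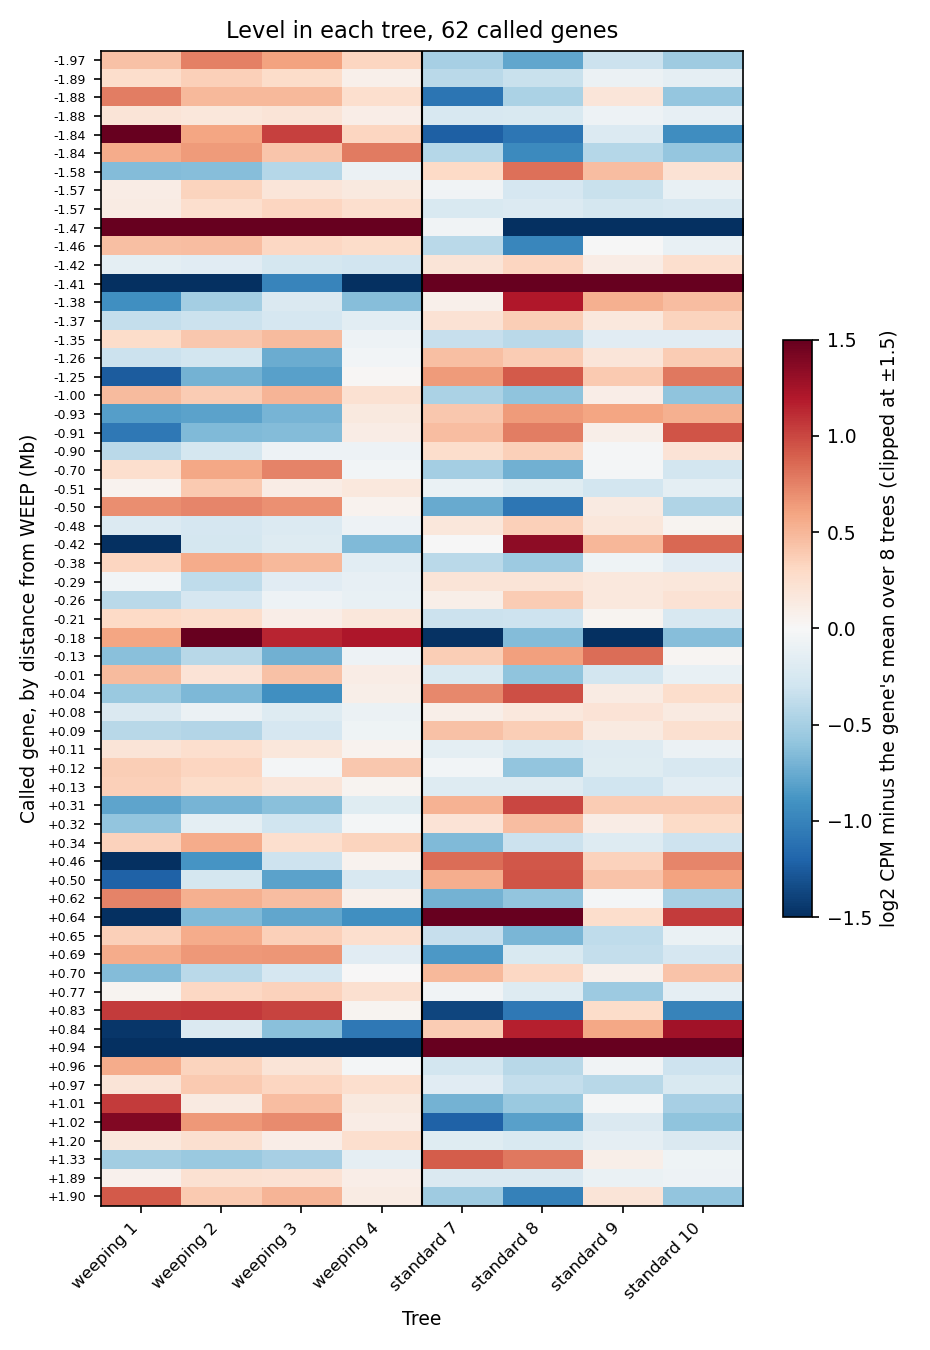
log2 CPM of the 62 called genes in each tree, minus the gene's own mean over 8 trees and clipped at 1.5; rows run in order of position and are labelled by distance from WEEP in Mb. Weeping tree 4 and standard tree 9 are the palest columns of their groups, with median absolute deviations of 0.143 and 0.197, and weeping tree 1 and standard tree 8 are the darkest, with 0.492 and 0.59.

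Of the other 33 genes called higher, the fitted change was 1.23 to 3.34-fold. The gene at 13631252 to 13633463, near the far end of the window, had 3341, 4884, 3753 and 2779 reads in weeping trees, against 1750, 1345, 1919 and 1846 in standard trees. Its level was 193 ± 25.8 CPM in weeping and 92.1 ± 11.8 CPM in standard trees (SD, n = 4 each; log2 fold change 1.06, adjusted p = 0.0127 by edgeR), and it was called with any tree left out. The gene at 15945162 to 15946867, 343 kb after WEEP, had 5058, 6869, 4770 and 4576 reads in weeping trees, against 2534, 2977, 3395 and 3499 in standard trees. The gene at 16618232 to 16621626 was more uneven, with 2089, 1474, 1309 and 784 reads in weeping trees, against 345, 424, 669 and 572 in standard trees. Its lowest weeping tree, tree 4, was still above its highest standard tree, tree 9. A smaller but tight rise was at 16803763 to 16810274, with 45.2 ± 2.20 CPM in weeping and 34.8 ± 1.07 CPM in standard trees (SD, n = 4 each).

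Of the other genes called lower, the gene at 15914295 to 15914651, 312 kb after WEEP, had 127, 160, 144 and 177 reads in weeping trees, against 318, 412, 279 and 313 in standard trees. The gene at 14232162 to 14234509 fell less, with 40.1 ± 2.53 CPM in weeping and 58.3 ± 4.01 CPM in standard trees (SD, n = 4 each), but its groups were far apart for their spread (log2 fold change -0.54, adjusted p = 0.0141 by edgeR). The gene at 16104700 to 16107139 had 235, 533, 314 and 421 reads in weeping trees, against 799, 987, 717 and 904 in standard trees. The gene at 14669316 to 14670584 had 458, 546, 505 and 817 reads in weeping trees, against 1079, 1182, 1189 and 1278 in standard trees. Weeping tree 4 was highest of its group in it and 81.4% of its reads had a single mapping position.

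Called genes that stood side by side were few and came in pairs. Of the 408 adjacent pairs of tested genes in the window, 10 were called in the same direction (2.45%, against 1.06% over the table) and 2 in opposite directions (0.49%, against 0.471%). No run was longer than a pair, whereas the table held 17 runs of 3 and 4 runs of 4. Of the 10 pairs, 6 were higher and 4 lower in weeping trees. One of them joined the gene at 13758073 to 13758930, with 509, 319, 366 and 204 reads in weeping trees against 77, 79, 151 and 102 in standard trees, to its neighbour at 13759826 to 13762438. The neighbour had 204, 255, 186 and 217 reads in weeping trees, against 104, 67, 101 and 101 in standard trees. Both had every weeping tree above every standard tree, but weeping tree 1 was highest in the first gene, at 27.5 CPM, and weeping tree 4 in the second, at 12.9 CPM. Another pair held the near-absent gene at 14188940 and the gene before it at 14182931 to 14186843, which fell far less, with 19.0 ± 0.914 CPM in weeping and 25.7 ± 1.59 CPM in standard trees (SD, n = 4 each).

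Adjacent genes seldom shared a pattern over the 8 trees, in the window as over the table. No adjacent pair of the window had the same split at a gap of at least 1, against 56 of the 18479 adjacent pairs of the table. At a gap of at least 0.5 the table had 142 such pairs and the window 1. That pair, at 13835894 to 13836745 and 13838814 to 13839770, was low in standard tree 7 and was not called. The first had 4921, 3903, 3838 and 2862 reads in weeping trees, against 1304, 2163, 4047 and 2503 in standard trees. The second had 22124, 17052, 14753 and 13794 reads in weeping trees, against 7566, 10223, 20749 and 12394 in standard trees. Both were among the highest in weeping tree 1 and standard tree 9, as was the most abundant gene of the window, 18.5 kb after WEEP.

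The longest stretch of like patterns, a likeness looked for after seeing the data, went with neither habit. It comprised 5 short tested genes from 17432461 to 17447614, whose neighbouring pairs correlated over the 8 libraries with Pearson r of 0.91, 0.93, 0.95 and 0.90 on log2 CPM. The points share libraries and their depth, and of the reads of these genes 68 to 100% had a single mapping position. The second of them had 182, 256, 445 and 485 reads in weeping trees, against 150, 214, 343 and 406 in standard trees. The last had 378, 444, 549 and 746 reads in weeping trees, against 371, 467, 577 and 575 in standard trees. In both genes the habits overlapped. Weeping trees 3 and 4, which were sequenced in the other lane, were above weeping trees 1 and 2. The standard trees, all sequenced in 1 lane, divided in a like way. Their higher pair had 343 and 406 reads in the second gene, against 150 and 214 in the lower pair. In the last gene the same higher pair had 577 and 575 reads, against 371 and 467. The part of the lane in these patterns was not tested. Over all adjacent pairs the median r was 0.12 in the window and 0.08 in the table. Pairs with r of at least 0.85 made up 5.39% of those in the window and 4.29% of those in the table.

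Other features of the genes, which the choice by position did not use, were compared with those elsewhere. Genes without any read made up 13.3% of the window, against 15.8% of the rest of scaffold 3 and 16.5% of the other scaffolds. The median level of tested genes was 6.03 RPKM (quartiles 2.09 and 15.1), against 6.49 and 6.61 RPKM. The median span of tested genes was 2480 bp, against 2570 and 2607 bp. Reads with a single mapping position made up 99.1% of those in the window, against 96.3% and 94.5%. The window took 2.40 to 2.55% of the reads of weeping trees and 2.36 to 2.66% of those of standard trees.

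After the gene at 15620346 the most abundant was at 15927131 to 15928357, with 1041 ± 225 RPKM in weeping and 1546 ± 276 RPKM in standard trees (SD, n = 4 each). It was not called (log2 fold change -0.57, adjusted p = 0.0959 by edgeR). None of the 8 most abundant genes of the window was called, with adjusted p from 0.0959 to 0.982 by edgeR.

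The authors' deposited table holds its own comparison of the habits, by Baggerley's test. With a corrected p under 0.05 it has 38 of the 600 listed genes of the window, 24 higher and 14 lower in weeping trees. Over the table it has 1244 of all 27864 genes (4.46%). Of the 38, 31 are among the 62 genes called by edgeR, which is 81.6% of the window's list in the authors' deposited table and 50% of the edgeR calls. All 31 have the same direction in the authors' deposited table as in the fit.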

How the data were processed

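The authors deposited 1 table that holds, for each gene and library, counts of total and of unique exon reads (those that map to 1 place) and RPKM values. The 50 bp reads were trimmed first, per the file headers and the labels' protocols. Neither aligner nor genome build is named in the labels or the table. RPKM values in the deposited table divide by the whole gene span. The authors' corrected p-value and signed fold (a score that is negative where lower in weeping trees) are Baggerley's, per the file headers. Another 92 columns of library values were not used. Starts are printed counted from 1.

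Total exon reads of all 8 libraries were fitted with edgeR 4.0.16 in R 4.3.3: filterByExpr (minimum count 10), TMM scaling, quasi-likelihood F-test on habit, Benjamini-Hochberg over 18520 genes. The common dispersion was 0.0475. Standard errors divide the log2 fold change by the square root of F. CPM values are TMM-scaled, except where genes are called near absent or switched, which use unscaled totals. log2 CPM used a prior count of 2. The fit was tested on simulated data. Steps use midpoints. Alternatives were RLE scaling, no or a stricter filter, DESeq2 1.42.0, unique reads, lane and leaving out each tree. Figures used matplotlib 3.10.9 in Python 3.11.15.

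The window and rules were chosen with earlier results of these data known. The naming rule took the 8 nearest listed genes on each side of WEEP, the 12 called genes of smallest p in each direction, near-absent genes, adjacent called genes and the most significant gene of each step. Genes that are named for being abundant, switched, alike in pattern or untested fall outside it and were chosen after their values were seen. By the labels, trees are biological replicates. No identifier matched the RefSeq table of assembly NCBIv2 (0 of 27864), so gene lists could not be used, and no sequence is shown.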

Additional observations from a re-analysis of the deposited data

Results flagged for a closer look

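Among 133 sets of 4 trees of 1 habit, 6 held a tree far from the other 3. For independent sets of normally spread values chance alone gives this in about 1 set in 20. Counts near 0 are not spread that way, the sets share the same 8 libraries, and some of the genes were chosen after their values were seen. That rate therefore cannot say whether 6 is more or fewer than chance gives. Values are CPM, and the gap to the nearest library is given as a share of the group's range. In standard trees the gene at 14378845 stood at 4.83 in tree 7 against 0 to 0.115 in the others (0.976), and the gene at 14188940 stood at 2.68 in tree 7 against 4.08 to 4.35 (0.837). The gene at 15594875, next to WEEP, stood at 24.7 in standard tree 8 against 30.9 to 32.1 (0.843). In weeping trees the gene at 14669316 stood at 48.4 in tree 4 against 24.7 to 27 (0.902), and the gene at 13838814 at 1194 in tree 1 against 783 to 817 (0.916). The gene at 15530932 had its only read in weeping tree 3 (0.0559 against 0 in the others), which by itself forces a gap of 1.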

How the results depend on the processing

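Tree numbers are not shared between the habits. No paired analysis was possible because of this. The 62 called genes became 98 with DESeq2, 38 with lane as a model term and 21 with a 2-fold minimum. They became 1 at an adjusted p of 0.01, and 2 to 100 with a tree left out. Within 1 Mb of WEEP 37 of the 217 tested genes were called (17.1%, against 11.5% over the table). Genes called higher were 18 with the lane term, 20 within lane 6 and 1 to 55 with a tree left out. Genes called lower were 49 with DESeq2 and 1 to 55 with a tree left out. Adjacent called runs were 5 with the lane term, 6 within lane 6 and 0 to 17 with a tree left out. Genes with habits apart were 192 within lane 6, where 2 weeping trees are set against 4 standard trees, and 89 to 155 with a tree left out. With fewer trees, habits fall apart more often in any gene. Genes near absent in 1 habit were 2 within lane 6, 0 at limits of 1 and 3 CPM, 0 at 0.2 and 1 CPM and 1 to 3 with a tree left out. Splits by habit were 11 within lane 6, 8 at a gap of 0.5 and 3 to 9 with a tree left out. For the counts by direction, runs, habits apart, near-absent genes and splits, shares over the table under these settings are not given here. Those counts therefore do not set the window apart from the table. Except where stated, the causes were not tested. Over 37 named called genes and 15 fits, 383 values stayed called and 172 did not, 35 of them without weeping tree 2. None changed sign, which was largely fixed in advance where the habits do not overlap. RLE scaling, both filters and unique reads kept the count of called genes within 1.5 times. Depth limits genes with few reads.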
